A study of Mus musculus with 7 samples.

Results

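The 67 genes described here are the developmental homeobox and T-box transcription factor genes outside the Hox clusters, taken by symbol from 21887 protein-coding genes. They comprise 14 Nkx, 6 sine oculis-related, 6 Irx, 6 Lhx, 2 Otx, 13 Tbx, 8 Pax, 3 Alx, 3 Msx, 2 En, 2 Gbx and 2 Barhl genes. Pax6, Lhx2 and Lhx6 match the symbols and were left out by the rule, and no measured value was used to choose the genes. The samples are mouse neural progenitors of the CD-1 strain, taken from dorsal telencephalon and sorted for the surface antigen CD15, and the assay is ATAC-seq, which marks accessible DNA through transposase insertion. Embryos were at E14.5 by the sample titles, whereas the age field gives embryonic day 14. The 3 wild-type libraries carry the label wild-type, and the 4 knockout libraries the label L3mbtl3 -/-. The targeted gene, L3mbtl3, codes for an MBT-repeat chromatin reader. The growth protocol also names heterozygous cells, although no library is labelled so. No treatment is named for either genotype. The sources used here do not say how the allele was made or whether each library is 1 embryo or a pool, so a p-value measures the spread between these libraries, which may in part be technical.

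The deposited files are 1 list of broad peaks per library, with 7448, 11394 and 6458 peaks in wild-type libraries 1 to 3 and 9827, 7111, 3366 and 17362 in knockout libraries 1 to 4. They hold no read counts, so the depth behind each list is unknown and no counting error can be set on a peak. Knockout library 4 has the longest list and stands apart in several counts below, which are therefore also given without it. A peak list from sorted tissue cannot tell a site open in few cells from one weakly open in many. The targeted gene had no peak within 1 kb of an end in any of the 7 libraries, so the lists do not check the label at that locus.

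Homeobox and T-box proteins bind DNA and assign regional and lineage identity in the embryo. Many of these genes are markers of places other than the dorsal telencephalon: Nkx2-1 of the ventral forebrain, En1, En2, Pax2, Pax5 and Gbx2 of the midbrain and anterior hindbrain, Nkx2-2, Nkx6-1, Pax3 and Pax7 of dorsoventral bands of the neural tube, and Nkx2-5, Tbx5 and Tbx20 of the heart. Their genes are classical targets of Polycomb complexes, which keep developmental regulators silent outside their own lineage, and many have promoters rich in CpG dinucleotides. Otx1 is expressed in dorsal telencephalic progenitors and in deep-layer neurons.

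Peaks overlapped the promoter window of 5 of the 47 genes with a promoter entry (10.6%), against 20.7% of 17492 protein-coding genes. Of these 5 windows, 4 are shown because they hold called sites at transcript starts. The window of Pax9 is left out, since only 2 of its bases lay under a peak. Each line gives the 250 bases before the RefSeq transcript start, 5′ to 3′ on the gene's strand, from the GRCm38.p6 promoter table. Capitals mark bases under a peak of at least 1 library. The 4 windows lie at chr9:87731261-87731510 (Tbx18), chr1:89931177-89931426 (Gbx2), chr17:85688255-85688504 (Six2) and chr9:24774304-24774553 (Tbx20), all on the minus strand. The last line is the promoter window of Snd1, chr6:28480098-28480347 on the plus strand, the non-member promoter that held the strongest recurrent peak near Pax4.
Tbx18: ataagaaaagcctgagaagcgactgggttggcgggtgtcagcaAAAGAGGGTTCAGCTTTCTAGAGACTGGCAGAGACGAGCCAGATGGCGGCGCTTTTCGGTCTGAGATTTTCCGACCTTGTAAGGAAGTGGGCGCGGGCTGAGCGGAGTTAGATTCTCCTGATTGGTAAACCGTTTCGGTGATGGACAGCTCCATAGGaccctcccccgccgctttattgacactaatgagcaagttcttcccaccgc
Gbx2: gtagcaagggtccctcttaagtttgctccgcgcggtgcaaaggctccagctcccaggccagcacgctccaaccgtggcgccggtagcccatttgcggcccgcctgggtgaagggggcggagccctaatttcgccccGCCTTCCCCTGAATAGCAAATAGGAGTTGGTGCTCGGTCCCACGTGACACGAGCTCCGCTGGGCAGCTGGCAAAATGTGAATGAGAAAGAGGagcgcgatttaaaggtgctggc
Six2: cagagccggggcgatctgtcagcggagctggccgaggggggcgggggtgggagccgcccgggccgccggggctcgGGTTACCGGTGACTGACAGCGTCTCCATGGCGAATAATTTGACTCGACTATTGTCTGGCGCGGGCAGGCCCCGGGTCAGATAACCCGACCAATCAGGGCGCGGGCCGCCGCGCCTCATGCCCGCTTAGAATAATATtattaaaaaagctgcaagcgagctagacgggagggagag
Tbx20: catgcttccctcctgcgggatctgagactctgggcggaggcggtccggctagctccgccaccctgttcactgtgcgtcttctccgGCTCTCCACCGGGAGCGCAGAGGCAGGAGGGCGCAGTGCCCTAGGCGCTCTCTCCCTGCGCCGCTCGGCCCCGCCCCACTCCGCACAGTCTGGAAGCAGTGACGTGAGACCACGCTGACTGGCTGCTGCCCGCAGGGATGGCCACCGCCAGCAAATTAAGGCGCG
Snd1: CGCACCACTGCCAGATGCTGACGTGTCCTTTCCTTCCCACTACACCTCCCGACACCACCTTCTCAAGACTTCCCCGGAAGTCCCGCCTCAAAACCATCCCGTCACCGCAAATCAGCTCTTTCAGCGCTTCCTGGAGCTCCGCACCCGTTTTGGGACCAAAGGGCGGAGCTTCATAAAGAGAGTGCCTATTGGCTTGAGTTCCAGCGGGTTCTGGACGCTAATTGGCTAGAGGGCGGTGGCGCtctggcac

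At Tbx18 the capitals run from 207 to 51 bp before the start, 157 bases in all with 10 CpG, and the 42 bases from 141 to 100 bp before the start lay under all 3 of its peaks. Capitals cover 92 bases with 4 CpG at Gbx2, 136 bases with 14 CpG at Six2 and 165 bases with 15 CpG at Tbx20, where the peak runs on past the start into the gene. A CCAAT box (CCAAT, either strand), a promoter element bound by the NF-Y factor, stood 87 bp before the start in both Tbx18 and Six2, inside the capitals. The same letters occur in 36.5% of the 17492 windows of this length, 1 for each protein-coding gene with a promoter entry, and in 40.4% of the 47 windows available for the homeobox and T-box genes. An E-box (CANNTG, which reads the same on both strands), the binding sequence of bHLH factors, lay under the peak once at Tbx18 and at 2 places at Gbx2, and not at Six2 or Tbx20. E-boxes occur in 62.7% of all windows. None of these motifs contains another. None of the 4 windows held TATAAA, the homeodomain core TAATTA or the T-box half-site AGGTGTGA on either strand. These were found in 12.4%, 4.46% and 1.03% of all windows. A match is a description of these letters and was not tested as a binding site.

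Peaks at gene ends were rare in this set. A peak within 1 kb of either end of the gene span was found in at least 1 library for 7 of the 67 genes (10.4%), where 23.6% of all protein-coding genes had one. No gene of the set had an end peak in 4 or more libraries, against 6.52% of all genes, and 2 had one in 3 or more, against 9.4%. The 7 genes were 4 of the 13 Tbx genes (Tbx18, Tbx20, Tbx3 and Tbx10), 1 of 14 Nkx genes (Nkx6-1), 1 of the 6 sine oculis-related genes (Six2) and 1 of 2 Gbx genes (Gbx2). The Irx, Lhx, Otx, Pax, Alx, Msx, En and Barhl families had no end peak in any library.

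Tbx18, a T-box gene of pericytes, the epicardium and other mesenchyme, had an end peak in wild-type library 2 and knockout libraries 1 and 4. The deposited fold enrichment over the peak caller's background, which ranks a peak only within its own list, was 5.87, 4.79 and 4.20 in these libraries. The corresponding −log10 q values were 4.51, 2.89 and 2.11. Nkx6-1, a homeobox gene of ventral spinal cord progenitors and pancreatic beta cells, had one in wild-type libraries 2 and 3 and knockout library 4, with fold enrichments of 4.42, 4.33 and 5.38. Its region (chromosome 5, 101665348 to 101665475) began 637 bp beyond the span, upstream of the transcript start. Both genes were thus called in libraries of each genotype, and neither in wild-type library 1 or knockout libraries 2 and 3.

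The other 5 end peaks were each seen in 1 library. Gbx2, of the midbrain-hindbrain boundary, was called in knockout library 4 with a fold of 4.23 and a −log10 q of 2.18. Six2, of nephron progenitors, was called there with a fold of 3.33 and a −log10 q of 1.32, close to the lowest value in that list, 1.31. Tbx3, which acts in limb and cardiac conduction development, was called there 185 bp inside the lower end of its span (chromosome 5, 119670719 to 119670929), at a fold of 3.85, and the peak also lay inside the lncRNA gene Tbx3os1. Tbx10 was called in the same library at a fold of 4.09, by a peak 781 bp beyond its downstream end and only 174 bp from Nudt8, a Nudix hydrolase gene. Tbx20 was called in wild-type library 1 at a fold of 3.93 and a −log10 q of 1.63. Knockout library 4 therefore called 6 of the 7 genes at an end, and without it 3 of 67 (4.48%) had an end peak in any library, against 17.6% of all genes.

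**Figure D1:**
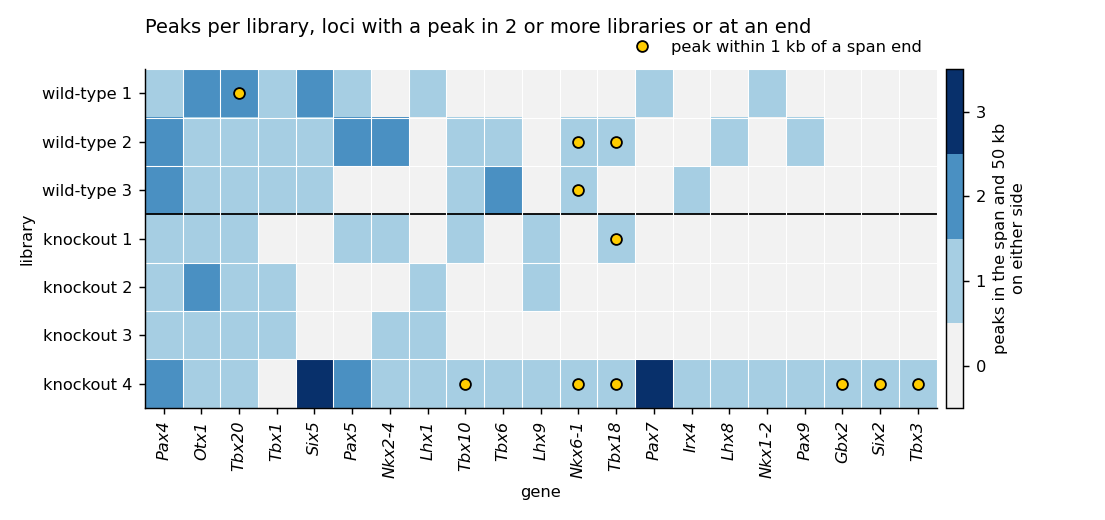
Number of peaks in each locus, the span with 50 kb added at both ends (colour, 0 to 3) for the 21 genes with such a peak in 2 or more libraries or with an end peak (columns, ordered by the number of libraries) in each library (rows, 3 wild-type above the line and 4 knockout below). Circles mark a peak within 1 kb of a span end. Otx1, Pax4 and Tbx20 are filled in every row, and Gbx2, Six2 and Tbx3 only in the row of knockout library 4.

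Wider loci, taken as the span with 50 kb added at both ends, held a peak in at least 1 library for 45 of the 67 genes (67.2%), near the 69.2% of all protein-coding genes. The loci differed from that background in recurrence. A peak in 1 library only was the whole record of 27 genes (40.3%, against 18.7% of all genes), and 9 genes had a locus peak in 4 or more libraries (13.4%, against 28.3%). Only Otx1, Pax4 and Tbx20 had one in all 7 (4.48%, against 6.9%). The median gene of the set held 1 peak summed over the 7 libraries and the median protein-coding gene 2. These genes have short spans, with a median of 9334 bp against 17169 bp. Among the 7443 protein-coding genes with spans between the quartiles of the set (4930 to 22063 bp), 25.2% had an end peak in at least 1 library, 24.2% a locus peak in 4 or more and 4.22% a locus peak in all 7. The share of the set in all 7 libraries, 4.48%, was thus near that of genes of like span.

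The peaks of all libraries merge into 25623 regions where they overlap by at least 1 bp, of which 64 lie in loci of these genes. Of the 64 regions, 43 were called in 1 library (67.2%, against 48.4% of all regions) and 6 in 4 or more (9.38%, against 25%). Knockout library 4 alone called 30 of them (46.9%, against 25.3%). The loci spanned 7.83 Mb and held 8.17 regions per Mb, and 0.766 per Mb called in 4 or more libraries. The loci of all protein-coding genes together held 10.5 and 2.48 per Mb. No test of these shares was made, since the genes were chosen with earlier results of these data known.

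**Figure D2:**
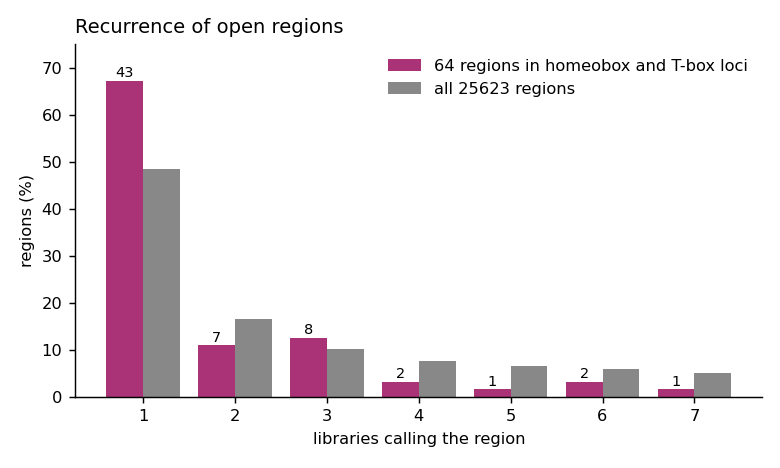
Share of regions (y axis, percent) by the number of libraries that called them (x axis) for the 64 regions in homeobox and T-box loci and for all 25623 regions, with the number of regions printed above the former. In the homeobox and T-box loci 43 regions stand at 1 library and 6 at 4 or more.

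The region shared most widely lay beside Otx1, which encodes an orthodenticle homeobox factor of the forebrain. It was called in all 7 libraries (chromosome 11, 22017498 to 22017792), 15847 bp from the span, and 163 of its bases lay under peaks of every library. The fold enrichment was 5.51, 5.94 and 5.48 in wild-type libraries 1 to 3 and 6.76, 7.71, 4.95 and 9.04 in knockout libraries 1 to 4. Ranked by q within its own list, the peak stood at the 68.1st percentile in knockout library 3 and between 78.2 and 99.5 in the others, where 100 is the strongest peak. The region lies inside the span of Ehbp1, which encodes an adaptor of endocytic trafficking, so its target gene is not known from these lists. A second Otx1 region, 6052 bp from the span and also inside Ehbp1, was called in wild-type library 1 and knockout library 2.

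Tbx20, a cardiac T-box gene that also acts in hindbrain motor neurons, had a region 8093 bp upstream of its span (chromosome 9, 24782396 to 24782654) in 6 of 7 libraries. The fold was 5.96, 6.55 and 4.08 in wild-type libraries 1 to 3 and 5.88, 5.72 and 4.50 in knockout libraries 1 to 3. It was absent from knockout library 4, although that list is the longest. Knockout library 4 had a separate peak inside the gene (chromosome 9, 24745131 to 24745222) at a fold of 8.15, in the 99.1st percentile of its list, which no other library called. The upstream region lies inside the lncRNA gene Gm29824 and in no other protein-coding gene.

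Pax4, a paired-box gene of pancreatic endocrine cells, had a peak in its locus in every library, but at the ends of its neighbours. The first region (chromosome 6, 28480097 to 28480339) lies in the promoter of Snd1, a gene for a nuclease-domain coactivator, and stops 9 bp before the transcript start listed with the sequence above. Of its bases, 95, from 206 to 112 bp before that start, lay under 6 peaks. The fold was 7.79, 6.57 and 4.98 in wild-type libraries 1 to 3, 8.07 in knockout library 1, 4.68 in knockout library 3 and 7.54 in knockout library 4. The other region, within 1 kb of an end of the zinc-finger gene Zfp800 (chromosome 6, 28396875 to 28397354), was called in wild-type libraries 2 and 3 and knockout libraries 2 and 4 at folds of 4.94, 5.01, 3.80 and 4.36. Pax4 itself had no peak inside its span.

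Tbx1, a T-box gene of the pharyngeal arches, had a region called in all 3 wild-type libraries, knockout library 2 and knockout library 3 (chromosome 16, 18533192 to 18533325). The fold was 8.23, 5.02 and 6.57 in wild-type libraries 1 to 3, and 5.87 and 4.13 in knockout libraries 2 and 3. It lay 47654 bp from the Tbx1 span, near the edge of the window, and inside Gnb1l. Lhx1, a LIM homeobox gene of Cajal-Retzius cells, the kidney and Purkinje cells, had a region 23859 bp upstream (chromosome 11, 84549393 to 84549642) in wild-type library 1 and knockout libraries 2, 3 and 4. There the fold was 4.37, 4.20, 4.09 and 4.27, and the peak stood at or below the 53.4th percentile of each list. Of the 6 regions called in 4 or more libraries, 4 thus lay inside or at an end of a protein-coding gene outside the set, and the regions at Tbx20 and Lhx1 did not.

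**Figure D3:**
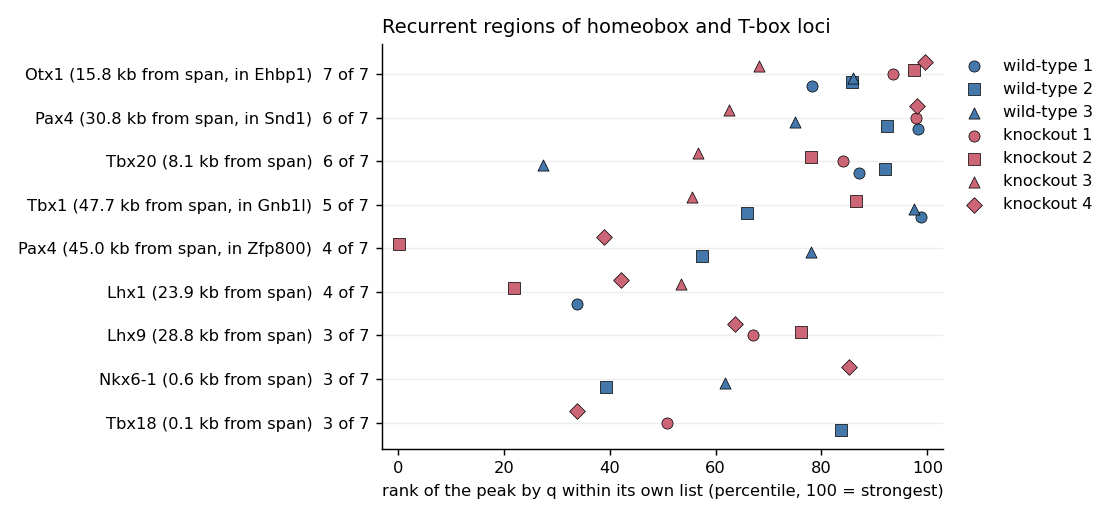
Rank by q of each library's peak within its own list (x axis, percentile, 100 the strongest) for the 6 regions called in 4 or more libraries, the 2 end regions called in 3 and the Lhx9 region called in 3 knockout libraries (y axis, with the distance from the gene span). Points are libraries, blue for wild-type and red for knockout, and a missing point means no peak. The Otx1 region has 7 points, all above 68.

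Some of the regions in fewer libraries, described here after their values were seen, also lay at neighbouring genes. Six5, a homeobox gene beside the myotonic dystrophy kinase gene, had 3 regions called in 2, 2 and 3 libraries, 1 at an end of Dmwd and 2 at an end of or inside Fbxo46. Tbx6, a gene of paraxial mesoderm, had a region inside Aldoa, the glycolytic aldolase gene, in wild-type libraries 2 and 3 and knockout library 4. Pax5 had a region with no other protein-coding gene at hand, 5607 bp beyond its downstream end (chromosome 4, 44518901 to 44519141), in wild-type library 2 and knockout libraries 1 and 4. A region inside Pax5 (chromosome 4, 44558428 to 44558647) was called in wild-type libraries 1 and 2. Nkx2-4 had regions inside Xrn2, an exonuclease gene, in 3 libraries and in 2. In all, 20 of the 64 regions touched the span of a protein-coding gene outside the set and 9 lay within 1 kb of an end of one, while 32 touched no protein-coding span at all. These counts stand without the same shares over all regions and describe the set only.

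By position, 10 of the 64 regions lay inside a span more than 1 kb from its ends, 7 within 1 kb of an end, and 10, 19 and 18 outside at up to 10, 25 and 50 kb. Regions inside spans were found in Pax3, Pax5, Pax7, Pax9, Tbx15, Tbx20 and Irx4. Pax7, of the dorsal neural tube and muscle stem cells, held 3 of them, all called in knockout library 4 and 1 also in wild-type library 1.

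No peak lay in the locus of 22 of the 67 genes in any library (32.8%, against 30.8% of all genes). They were Nkx1-1, Nkx2-1, Nkx2-2, Nkx2-3 and Nkx6-3, Irx2, Irx3 and Irx6, Six3 and Six4, Tbx2, Tbx4, Tbx5, Tbx21 and Tbx22, Alx1 and Alx4, and Lhx5, Pax2, Msx2, En1 and Barhl1. Among them are Nkx2-1, which specifies the medial ganglionic eminence, Six3 of the early anterior forebrain, and Lhx5 of the hippocampal primordium. Without knockout library 4 the loci with no peak numbered 41 (61.2%, against 43.5% of all genes), so that the share near the background with all 7 lists rests on that library. By family, loci with no peak numbered 1 of 8 in Pax, 1 of 6 in Lhx, 0 of 2 in Otx and 0 of 2 in Gbx. They numbered 5 of 14 in Nkx, 5 of 13 in Tbx, 3 of 6 in Irx and 2 of 3 in Alx. In the sine oculis-related genes they numbered 2 of 6, in Msx 1 of 3, in En 1 of 2 and in Barhl 1 of 2. The 2 Gbx loci each had a peak in 1 library only. Median spans were 73359 bp in Pax, 6080 bp in Irx and 3653.5 bp in Nkx, so the families' windows differ in size.

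Loci with and without a peak both had a median of 1 other protein-coding gene within 50 kb. The 45 loci with a peak had a median span of 7007 bp and the 22 without one of 10036 bp. All 9 genes with locus peaks in 4 or more libraries had at least 1 neighbour, and 9 of the 22 silent genes and 13 of the 45 open genes had none. Peaks at the neighbours themselves count in a locus, and the groups were formed from these same calls. The counts stand without a share over all protein-coding genes, so they are not read as a trait of the set.

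Promoters of these genes are rich in CpG. A promoter entry, from 250 bp before to 50 bp after a start, was available for 47 of the 67 genes, and its median G and C content was 60.0% against 56.3% over 17492 protein-coding genes. The median ratio of observed to expected CpG was 0.679 against 0.577. Of the 47 windows, 28 (59.6%) had at least 50% G and C and a ratio of at least 0.6, called CpG-rich here, against 45.8% of all windows. Among CpG-rich genes, 5 of the 28 in the set (17.9%) had an end peak in at least 1 library and 38.2% of all 8004 did. Counting peaks within 1 kb of a listed start in 4 or more libraries gave 0 of 28 against 10.7%. These shares were computed after the calls were seen and were not tested.

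**Figure D4:**
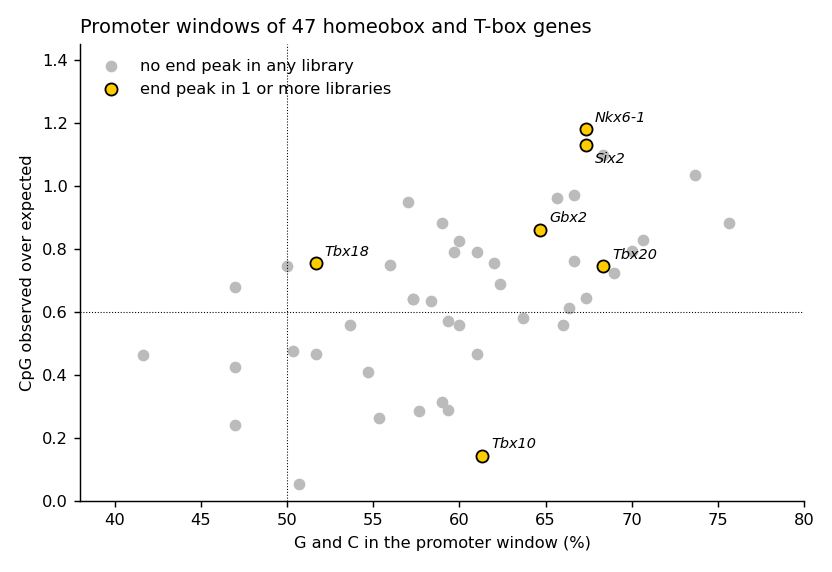
Ratio of observed to expected CpG (y axis) against G and C content in percent (x axis) for the promoter windows of 47 homeobox and T-box genes, 1 point per gene. Filled yellow points are the 6 with an end peak in at least 1 library, of which all but Tbx10 lie above and to the right of the dotted lines at a ratio of 0.6 and 50%.

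Related genes outside the set gave a scale for these shares. None of the 39 Hox genes had an end peak, 10 of 39 had a locus peak and 0 of 39 had one in 4 or more libraries. Of 18 homeobox genes expressed in the telencephalon, a list that includes Pax6, Lhx2 and Lhx6, 3 had an end peak, 14 a locus peak and 7 (38.9%) a locus peak in 4 or more libraries. Pax6 held 2, 1 and 1 peaks in wild-type libraries 1 to 3 and 3, 1, 0 and 6 in knockout libraries 1 to 4. Lhx6 was called in knockout libraries 1 and 2 and Lhx2 in knockout library 1, each with 1 peak. Of the T-box genes outside the symbol rule, Tbr1, of deep-layer cortical neurons, had a locus peak in 7 libraries, Mga in 1 and Eomes in none. A locus peak in at least 1 library was found for 12 of 12 markers of dorsal progenitors, 6 of 10 of the ventral telencephalon, 3 of 8 of the meninges, 5 of 5 of endothelium and 3 of 6 of microglia and blood. In 4 or more libraries the counts were 8, 2, 1, 0 and 0 in the same order. Of all protein-coding genes, 69.2% had a locus peak in at least 1 library and 28.3% in 4 or more. Of the endothelial loci, 4 were called in 1 library only. At span ends the counts were 6, 3, 1, 0 and 0 in at least 1 library (23.6% of all genes). In 4 or more libraries they were 0, 2, 0, 0 and 0 (6.52%), so the ventral list stood above the dorsal one there.

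The comparison of genotypes asks whether loss of L3mbtl3, which the study's title links to Polycomb repressive complex 1, was accompanied by peaks at these genes. An end peak was found at 1, 2 and 1 of the 67 genes in wild-type libraries 1 to 3 and at 1, 0, 0 and 6 in knockout libraries 1 to 4. The wild-type share was 1.99% ± 0.862 (SD, n = 3) and the knockout share 2.61% ± 4.29 (SD, n = 4), where all protein-coding genes stood at 8.39% ± 2.41 and 9.11% ± 6.30. The difference of 0.622 percentage points was smaller than the spread among knockout libraries, and without knockout library 4 it was −1.49. In every library the set was below all genes, at a ratio of 0 to 0.497 with a mean of 0.195 ± 0.170 (SD, n = 7).

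**Figure D5:**
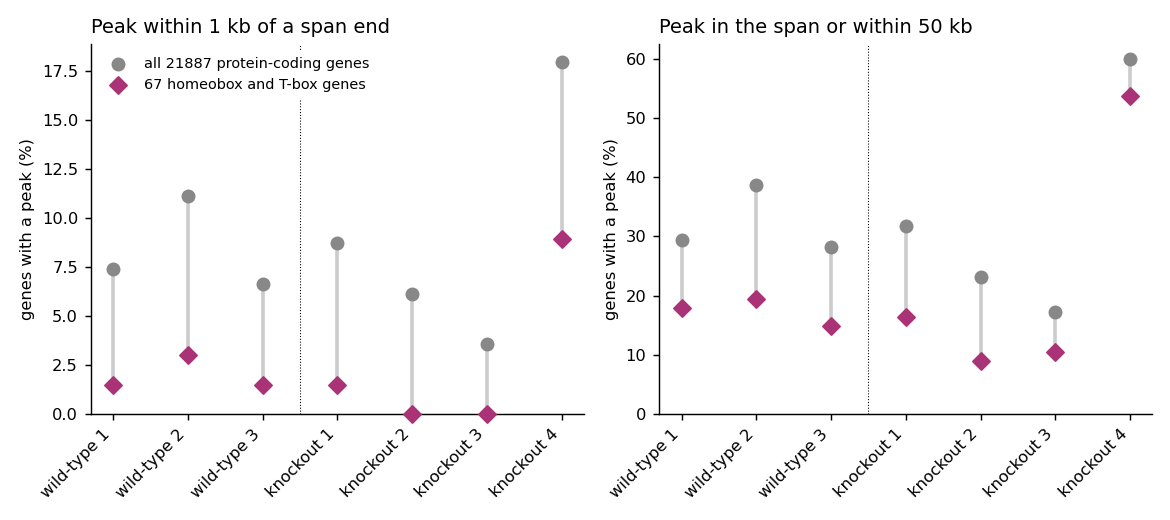
Share of genes with a peak (y axis, percent) within 1 kb of a span end (left) and in the span or within 50 kb (right) in each library (x axis), for the 67 homeobox and T-box genes (diamonds) and all 21887 protein-coding genes (circles). Diamonds lie below circles in all 7 libraries in both panels, from 0 to 8.96% on the left and from 8.96% to 53.7% on the right.

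Loci of the set held 16, 16 and 12 different peaks in wild-type libraries 1 to 3 and 10, 7, 7 and 45 in knockout libraries 1 to 4. The wild-type mean was 14.7 ± 2.31 (SD, n = 3) and the knockout mean 17.2 ± 18.6 (SD, n = 4), and the difference of 2.58 was smaller than the spread. Without knockout library 4 the knockout mean was 8 ± 1.73 and each of the other 3 knockout libraries lay below every wild-type library. Their lists averaged 6768 peaks, against 8433 in wild-type. By the share of genes with a locus peak, these groups overlapped. In wild-type and then knockout libraries 1 to 3 it was 17.9%, 19.4%, 14.9%, 16.4%, 8.96% and 10.4% in the set. Over all protein-coding genes it was 29.4%, 38.7%, 28.2%, 31.8%, 23.1% and 17.2%. Per 1000 peaks in the list, the loci held 2.15, 1.40 and 1.86 peaks in wild-type and 1.02, 0.984, 2.08 and 2.59 in knockout libraries, and the groups overlapped. Knockout library 4 supplied 39.8% of the 113 peaks in these loci and 27.6% of the peaks in all lists.

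No single gene of the set passed a test for a difference between genotypes. With Fisher's exact test on end calls over all protein-coding genes, 0 of the 67 genes passed a Benjamini-Hochberg adjusted p of 0.05 and 0 had an unadjusted p under 0.05, against 0% and 0.0457% of all genes. An exact permutation test of the number of locus peaks gave 0 and 0 as well, against 0% and 0.228%. The smallest unadjusted p in the set was 0.429 for end calls and 0.143 for locus peaks (exact tests, adjusted p = 1). The smallest p that 3 against 4 libraries allow is 0.0286, so no gene could pass the adjustment unless most genes reached that value. No gene of the set was called at an end or in its locus in all libraries of 1 genotype and none of the other, a pattern seen for 0.0183% and 0.0274% of all genes at ends and 0.123% and 0.0822% in loci, in the wild-type and the knockout direction.

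The locus with the smallest p was Lhx9, a LIM homeobox gene of the early medial pallium and thalamus. Its region (chromosome 1, 138877614 to 138877785), 28775 bp upstream of the span, was called in 0 of 3 wild-type libraries and in knockout libraries 1, 2 and 4, at folds of 5.20, 5.52 and 4.77 (exact permutation p = 0.143, adjusted p = 1). In the other direction, the region inside Pax5 described above was called in wild-type libraries 1 and 2 and in no knockout library (Fisher's exact p = 0.143, adjusted p = 1), at folds of 3.94 and 3.84 and in the lowest part of both lists by q (percentiles 4.86 and 4.34). Among loci that leaned toward wild-type, Tbx6 had the smallest p, with 0, 1 and 2 peaks in wild-type libraries 1 to 3 and 0, 0, 0 and 1 in knockout libraries 1 to 4 (exact permutation p = 0.371, adjusted p = 1).

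Over all loci, 28 genes held more peaks per knockout than per wild-type library and 17 fewer (41.8% and 25.4%, against 40.5% and 26.2% of all genes). Without knockout library 4 the counts were 6 and 17 (8.96% and 25.4%, against 12.4% and 32.9%), so the lean toward knockout turned round with that library, in the set and in the background alike. Of the 64 regions, 34 were called in no wild-type library (53.1%, against 39.6% of all regions), 30 of them in knockout library 4 alone, and 11 in no knockout library (17.2%, against 16.2%). The other 19 were called in both genotypes. No region of these loci had an unadjusted Fisher exact p under 0.05, against 0.242% of all regions. None was called in every library of 1 genotype and none of the other, against 0.133% of all regions in the wild-type and 0.109% in the knockout direction.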

How the data were processed

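The authors deposited 1 broad peak list per library, called separately. Per the file headers and format, each deposited peak carries its −log10 p, its −log10 q and a ratio of signal to local background, called fold here. A deposited whole-number score was not used. The submitters' processing notes name MACS2, Bowtie2 2.3.5.1, deepTools 3.3.0, SAMtools 1.9, CASAVA 1.9 and FastQC 0.11.8, with GRCm38 as the build. Settings, the MACS2 version and any transposase shift are not stated there. The smallest −log10 q was 1.30 to 1.32 per list.

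Genes and spans came from a RefSeq table of GRCm38.p6, promoter windows from a RefSeq promoter table of the same build. Coordinates count from 1. End windows reached 1 kb to either side of both span ends, loci 50 kb beyond the span. End calls were compared with Fisher's exact test and locus peak numbers with an exact permutation test over 35 assignments, both two-sided, on all genes, with Benjamini-Hochberg adjustment over 21887 genes (Python 3.11.15, scipy 1.17.1). The code was tested on simulated data. Replicate numbers do not pair the libraries by the labels.

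The members, lists and tests were chosen with earlier results of these data known. By plan, values per library were given for genes with an end peak, with a region called in 4 or more libraries, or fully separated by genotype. No gene of the set met the last rule. Other genes of the set described one by one, among them Lhx9, Pax5, Pax7 and Tbx6, were chosen after their values were seen. Single results for some genes are not reported here.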

Additional observations from a re-analysis of the deposited data

Results flagged for a closer look

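Among the 4 knockout libraries, knockout library 4 stood apart from the others in 3 of 9 counts and ratios examined, by Dixon's criterion for 4 samples at the 95% level. It had an end peak at 6 of the 67 genes, where the others had 1, 0 and 0. It had a locus peak for 36 genes, where they had 11, 6 and 7, and 45 different peaks in these loci, where they had 10, 7 and 7. The criterion flags about 1 in 20 groups by chance, and the 3 counts come from the same peaks. The number of peaks in its list, 17362, and the number of peaks in these loci per 1000 peaks, 2.59, did not meet the criterion. The part of list length in these counts was not tested. Single calls, which are present or absent, were not examined in this way.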

How the results depend on the processing

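No gene of the set passed the adjusted threshold under any of the alternatives tried, for end calls or for locus peaks. This outcome was nearly fixed in advance. All 7 libraries allow no p under 0.0286 in these exact tests, and alternatives with fewer libraries allow only larger ones. The count of genes passing therefore does not measure how stable the genotype comparison is. The number of genes with an end peak, 7, was 0 at −log10 q of at least 5 (4.19% of all genes), 2 with equal lists of 3366 peaks (10.7%), and 3 to 7 without each library, lowest without knockout library 4. The number with no locus peak, 22 of 67, was 63 at −log10 q of at least 5 (85.0% of all genes) and 53 with equal lists (61.7%). It was 35 with margins of 25 kb (43.0%) and 11 with 100 kb (18.1%). Without each library in turn it was 22 to 41, highest without knockout library 4. With the stricter q, equal lists and the 25 kb margin, the share in the set lay above that of all genes. The ratio of end shares, 0.195, was 0 at −log10 q of at least 5, where fewer peaks remain by construction. The genotype difference in end share changed sign, within the spread, with equal lists (−0.622 points), at transcript starts only (−0.887) and without knockout library 4 (−1.49). That in locus peaks did so at −log10 q of at least 5 (−0.167), per 1000 peaks (−0.135) and without knockout library 4 (−6.67). With the replicate number as a block, on numbers 1 to 3, the differences were −1.49 points and −6.67 peaks, and 0 genes passed in either test, for which the smallest p is 0.25. The block leaves out knockout library 4 by construction. Same-numbered libraries deviated together with correlations of −0.0537, −0.0811 and 0.336 over genes, so the numbers were not taken as pairs, and not every library correlated best with its own number. Read depth is unknown and limits every absence: a gene with no peak is not shown to be closed.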

Other observations

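Several of these genes lie close enough for their 50 kb margins to overlap, so that neighbours share a record. The Nkx2-1, Nkx2-9 and Pax9 loci (spans on chromosome 12, 56531935 to 56712824) held 4 regions, each called in 1 library. Tbx2 and Tbx4 on chromosome 11 held none, and Six3 and Six2 on chromosome 17 held only the Six2 end peak. Of these groups of neighbours, Nkx2-4 and Nkx2-2 on chromosome 2 had the most recurrent region, in 3 libraries and inside Xrn2. None of these groups held a region called in 4 or more libraries.

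Where the strand was listed, regions outside the spans lay as often upstream as downstream, at 20 pairs of gene and region on each side. A listed Pax9 start inside the Pax9 span lay under a peak of wild-type library 2 (chromosome 12, 56695469 to 56695619), which the span ends do not count.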
